A study of Homo sapiens with 4 samples.

Results

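The clustered histone genes encode the histones made for new chromatin during DNA replication, and lie mostly in a large cluster on chromosome 6 (49 of those measured) and in groups on chromosome 1 (11), with H4C16 alone on chromosome 12. Their members were taken by name, as the genes whose current symbol is H1- followed by 1 to 6, or H2AC, H2BC, H3C or H4C followed by a number. RefSeq lists 69 such genes, of which 61 had a probe set with 1 symbol on these arrays, among 17709 probe sets with 1 symbol in all. The 61 comprise 6 H1, 14 H2A, 17 H2B, 9 H3 and 15 H4 genes. H2AC7, H2AC16, H2AC17, H2BC15, H3C4, H3C12, H3C14 and H3C15 were not analysed here.

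The cells were SK-N-AS, a long-established line from a human neuroblastoma, profiled on 4 whole-transcript arrays from Affymetrix. The 2 treated arrays came from cells exposed for 48 h to 30 µM BG-P400-TAT, a compound that the series title describes as directed at the norepinephrine transporter and the integrin αvβ3. The 2 untreated arrays came from cells given phosphate-buffered saline over an equal time, and all cells grew in IMDM with serum. The design text calls the arrays of a group biological replicates and gives the compound's anticancer functions as the purpose of the profiling, and all values come from this 1 cell line.

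Core histones H2A, H2B, H3 and H4 form the protein spool around which DNA is wound, and H1 linker histones bind where the DNA enters and leaves it. The messenger RNAs of the clustered genes are made in S phase, mostly lack a poly(A) tail, and end in a stem-loop that is bound by SLBP, the stem-loop binding protein. Whole-transcript labelling primes along the RNA and so does not depend on a poly(A) tail. Copies within a class are nearly identical in their coding sequence, so probe sets of different members of a class may share signal, and a value assigned to 1 member is uncertain to that extent.

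The 5 classes differ in the elements that lie before their start sites, which are shown here because the results below are ordered by class. In each sequence the 120 bases before the start are given, from RefSeq promoters of GRCh38.p14, with the class element in capitals. The genes are H1-5 (chr6:27867589-27867708, minus strand), H2BC8 (chr6:26216689-26216808, minus strand), H2BC26 (chr1:228457983-228458102, plus strand), H4C5 (chr6:26204490-26204609, plus strand) and H4C7 (chr6:26246997-26247116, minus strand).
H1-5: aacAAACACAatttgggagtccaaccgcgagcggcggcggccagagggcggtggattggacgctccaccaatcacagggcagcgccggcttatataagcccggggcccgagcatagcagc
H2BC8: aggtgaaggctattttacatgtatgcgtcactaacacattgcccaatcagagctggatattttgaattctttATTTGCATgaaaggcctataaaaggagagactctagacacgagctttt
H2BC26: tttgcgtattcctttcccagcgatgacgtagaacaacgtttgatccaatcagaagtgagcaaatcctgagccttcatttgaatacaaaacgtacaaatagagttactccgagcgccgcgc
H4C5: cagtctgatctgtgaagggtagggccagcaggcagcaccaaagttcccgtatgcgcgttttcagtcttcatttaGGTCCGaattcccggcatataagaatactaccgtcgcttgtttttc
H4C7: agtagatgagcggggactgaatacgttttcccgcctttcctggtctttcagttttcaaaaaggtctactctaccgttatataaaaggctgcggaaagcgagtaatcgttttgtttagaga
The capitals mark AAACACA, known as the H1 box, in H1-5, the octamer ATTTGCAT, a site for the factor POU2F1, in H2BC8, and GGTCCG, part of the H4 element to which the factor HINFP binds, in H4C5. H2BC26 and H4C7 are shown because the letters searched for their class do not occur in their windows.

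Motifs were searched on both strands of the 250 bases before the start, in the 64 of the 69 genes with a promoter entry and in all 35116 entries. AAACACA was present in 6 of 6 H1 genes, in no other histone gene searched, and in 4.82% of all entries. ATTTGCAT was present in 14 of 18 H2B genes and 11 of 16 H2A genes, against 1.63% of all entries. Most H2A genes share that window with an H2B gene, since 11 H2A and H2B pairs are transcribed away from each other from neighbouring starts. GGTCCG was present in 12 of 13 H4 genes, against 9.43% of all entries. CCAAT was present in all 6 H1, 16 H2A, 18 H2B and 11 H3 genes searched but in 3 of 13 H4 genes, against 32.0% of all entries. TATAAA, the TATA box, was present in 3 of 6 H1, 12 of 16 H2A, 12 of 18 H2B, 9 of 11 H3 and 7 of 13 H4 genes, against 10.7% of all entries. No motif searched contains another on either strand. These matches are descriptions of the sequence and not measured binding sites.

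The array values are log2 expression values per probe set, each on its own scale, so levels of different genes are not set against each other. Genes with a 4-array mean of more than 6.96 are called above the negative controls, this limit being the 95th percentile of 612 such probe sets. By this limit 50 of the 61 genes were above the negative controls, namely 3 H1, 13 H2A, 15 H2B, 8 H3 and 11 H4 genes. The same percentile taken on a single array, the array limit, is higher, at 7.31 and 7.64 on untreated replicates 1 and 2 and at 7.19 and 7.25 on treated replicates 1 and 2. Just outside the limit were H4C2 with a mean of 6.79 and H3C6 with 6.72, and just inside were H4C13 with 7.06 and H2BC26 with 7.23. The 3 members known from testis, H1-6, H2AC1 and H2BC1, were all below it, as were H1-1, H1-3, H2BC17, H4C6, H4C7 and H4C16. H3C6 exceeded the array limit on treated replicate 2 alone, and no fold is given for any of these 11 genes.

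**Figure D1:**
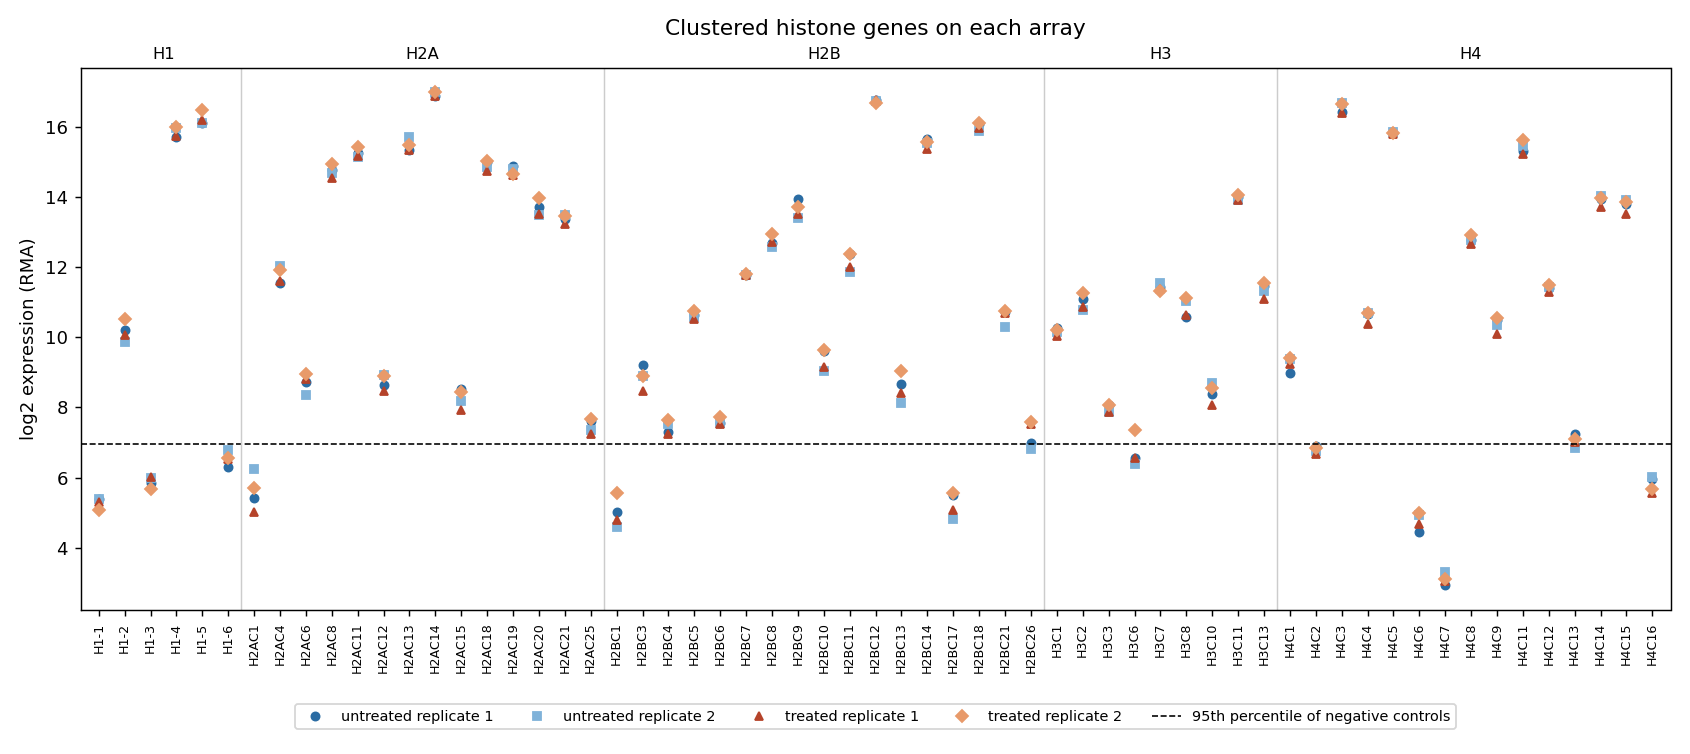
Log2 expression of the 61 measured clustered histone genes (x axis, by class) on each of the 4 arrays (y axis, log2 RMA units), with the limit of the negative controls as a dashed line. The 50 genes above the limit have means from 7.06 to 16.92, and the symbols of the 4 arrays lie close together for most genes.

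As checks of the samples, 6 of 8 measured sympathetic neuroblastoma markers were above the negative controls, among them PHOX2A, HAND2 and ISL1, while TH and DBH, enzymes of catecholamine synthesis, were below on all 4 arrays. All 7 mesenchymal neuroblastoma markers were above, and 0 of 4 endothelial and 0 of 4 epithelial markers were. Of 4 immune markers PTPRC was above, at 12.75, 12.80, 12.71 and 12.57 in the order of arrays used below, and CD3E, CD14 and ITGAM were not. The mesenchymal markers had a median treated minus untreated difference of 0.28 with 7 of 7 positive, and the sympathetic ones 0.14 with 4 of 6 positive. Of all probe sets above the negative controls 58.6% were positive. The part of the marker differences in the values of the histone genes was not tested, nor was whether the probe set named PTPRC reads that gene.

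No clustered histone gene passed the test of treatment, in either direction. With limma and Benjamini-Hochberg adjustment, 0 of the 61 genes and 0 of the 21448 probe sets (0%) passed an adjusted p of 0.05, and the smallest adjusted p of a member was 0.948. Before adjustment, 1089 of the 21448 probe sets had a p under 0.05. Among those above the negative controls they were 248 of 9960 (2.49%), and among the 50 histone genes 1, H2BC26, whose untreated values were below the array limit. The median treated minus untreated difference of the 50 genes was 0.0061 on the log2 scale, with 27 higher and 23 lower. Over the 9960 probe sets the median was 0.038 and 58.6% were higher. The confidence interval lay within 2-fold in both directions for 48 of the 50, the exceptions being H2BC13 and H2BC26. In both treated arrays 4 of the 50 genes stood above both untreated arrays, where 20.9% of the 9960 probe sets did so, and 2 stood below both, where 11.5% did so. In such bulk samples the share of cells in S phase and the amount of histone RNA per cell cannot be told apart.

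**Figure D2:**
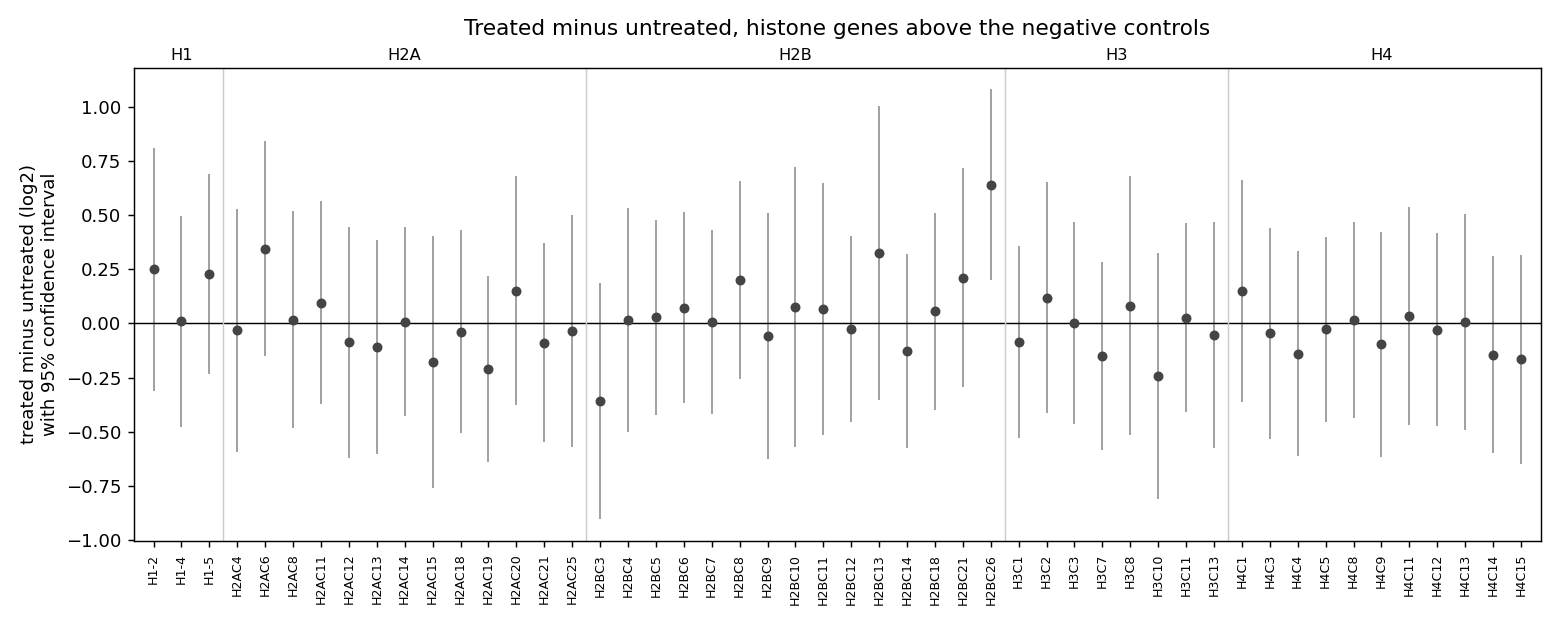
Treated minus untreated log2 difference (y axis) of the 50 clustered histone genes above the negative controls (x axis, by class), 2 arrays per group, with 95% confidence intervals from limma as lines. No gene passes the adjusted test, and the point of H2BC26 (0.64) rests on untreated values below the array limit, so that only a bound can be read from it.

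Larger differences in this family lay between the 2 treated arrays. Of the 50 genes, 48 were higher on treated replicate 2 than on treated replicate 1, by a median of 0.25 on the log2 scale, with a range of -0.10 to 0.62. Over the 9960 probe sets above the negative controls the same difference had a median of -0.024 and was positive in 45.5%. H2BC12 and H3C7 were the 2 genes not higher on treated replicate 2. Treated replicate 1 lay below the untreated mean in 41 of the 50 genes, with a median of -0.12, and treated replicate 2 above it in 42, with a median of 0.13. Of the 9960 probe sets, 4014 lay below it on treated replicate 1, with a median of 0.047. On treated replicate 2, 55.2% of them lay above it, with a median of 0.030. The difference between the treated arrays was larger than that between the group means in 45 of the 50 genes, against 58.0% of the 9960 probe sets. This compares 1 array with 1 array and has no test. After another quantile normalization the 48 became 46, and after median centring or cyclic loess it was 48.

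**Figure D3:**
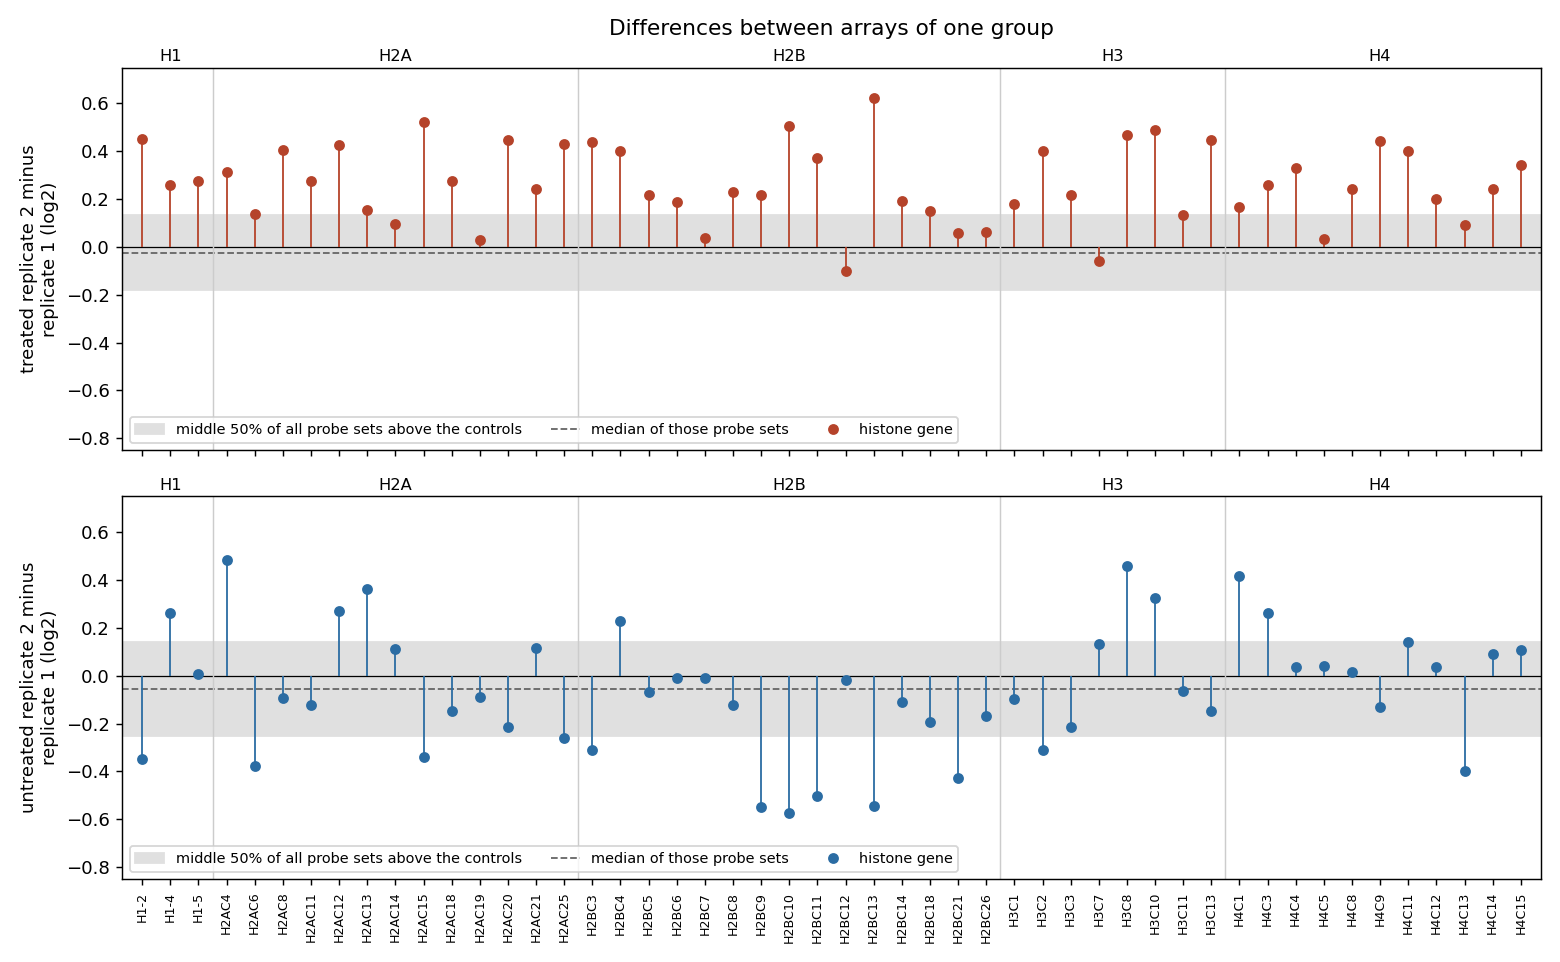
Log2 difference between the 2 arrays of one group (y axis), treated in the upper and untreated in the lower panel, for the 50 clustered histone genes above the negative controls (x axis, by class). The grey band holds the middle 50% of the 9960 probe sets above the negative controls and the dashed line is their median. In the treated panel 48 points lie above 0 and 40 above the band. In the untreated panel 20 lie above 0, where 42.4% of the 9960 probe sets do.

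In what follows, the 4 values of a gene are log2 levels on untreated replicates 1 and 2 and treated replicates 1 and 2, in that order. Among the H1 linker histones, H1-2, a somatic linker histone whose message can also be polyadenylated, stood at 10.21, 9.86, 10.06 and 10.51. H1-4, an abundant somatic form, stood at 15.71, 15.97, 15.72 and 15.98, and the 2 groups had nearly the same pair of values. H1-5, another somatic form, stood at 16.10, 16.11, 16.19 and 16.47. Both treated values of H1-5 were above both untreated values, by a difference of 0.23 ± 0.19 (SE), with a 95% confidence interval of -0.23 to 0.69 and a limma adjusted p of 0.963. With an array left out, the difference of H1-5 ran over 0.09 to 0.37. The median difference of the 3 H1 genes was 0.23, the highest of the 5 classes, and it was 0.025 without treated replicate 2. Only 3 of 6 H1 genes entered it.

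The H2A genes of the chromosome 6 cluster encode nearly identical core histones. H2AC4 stood at 11.55, 12.03, 11.60 and 11.91, with the lower value of each group on replicate 1. H2AC8 stood at 14.76, 14.67, 14.53 and 14.93. H2AC11 stood at 15.26, 15.13, 15.15 and 15.43. In H2AC8 and H2AC11 treated replicate 2 was the highest array, and treated replicate 1 was the lowest for H2AC8 and close to the lowest for H2AC11. H2AC12 stood at 8.65, 8.92, 8.48 and 8.91. H2AC13 stood at 15.33, 15.69, 15.33 and 15.48. H2AC14 stood at 16.86, 16.98, 16.88 and 16.98. The groups overlapped in these 3 genes, and H2AC14 varied by no more than 0.11 between the untreated arrays and 0.10 between the treated ones. H2AC15 stood at 8.53, 8.19, 7.92 and 8.44, with treated replicate 1 as its lowest array.

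H2AC6, an H2A gene whose message can be polyadenylated, stood at 8.72, 8.34, 8.81 and 8.94. Both treated values were above both untreated values, although the gap between the groups was smaller than that between the untreated arrays. Its treated minus untreated difference was 0.35 ± 0.21 (SE), with an interval of -0.15 to 0.84, a limma adjusted p of 0.948, and 0.16 to 0.53 with an array left out. Of the 13 H2A genes above the negative controls it had the smallest p.

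The H2A genes on chromosome 1 include H2AC18 and H2AC19, which have near-identical coding sequences. Their 250 bases before the start matched at 60 of 250 positions, set side by side without gaps. Such a count cannot tell different promoters from like ones whose listed starts are shifted. H2AC18 stood at 14.98, 14.83, 14.73 and 15.01. H2AC19 stood at 14.89, 14.80, 14.61 and 14.65, with both treated values below both untreated ones. The difference of H2AC19 was -0.21 ± 0.18 (SE), with an interval of -0.64 to 0.22 and a limma adjusted p of 0.963. Treated replicate 2 was the highest array for H2AC18 and next to the lowest for H2AC19, so the 2 copies did not give the same order of arrays, and which copy a probe reads is uncertain. H2AC20 stood at 13.69, 13.48, 13.52 and 13.96. H2AC21 stood at 13.37, 13.48, 13.21 and 13.46. H2AC25, of a small group with H2BC26, stood at 7.61, 7.35, 7.23 and 7.66 and was above the array limit on 3 arrays. The groups overlapped in all 3 of these genes. Over the 13 H2A genes the median difference was -0.034, and 13 of 13 were higher on treated replicate 2 than on treated replicate 1.

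H2B pairs with H2A in the nucleosome, and 15 of its 17 measured genes were above the negative controls. H2BC26, formerly named HIST3H2BB or H2BU1, stood at 6.996, 6.83, 7.52 and 7.58. Both treated arrays were above both untreated ones. H2BC26 was above the array limit on the treated arrays and not on the untreated ones, so it entered the 50 genes through its treated values. Its mean was 6.91 ± 0.12 (SD, n = 2) without and 7.55 ± 0.043 (SD, n = 2) with the compound. Untreated cells give only a bound, the mean over the untreated arrays of the higher of each array's limit and its own value. The treated mean was 1.05-fold above that bound, although both treated values lay below the array limit of untreated replicate 2, 7.64. That bound makes no allowance for the spread between arrays. The limma adjusted p of H2BC26 was 0.948. H2BC26 is the H2B gene shown above without the octamer.

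H2BC8 also had treated values above the untreated ones, at 12.69, 12.57, 12.72 and 12.94. Its difference was 0.20 ± 0.19 (SE), with an interval of -0.26 to 0.66 and a limma adjusted p of 0.973. H2BC3 stood at 9.20, 8.89, 8.47 and 8.91, with its lowest value on treated replicate 1. The difference of H2BC3, -0.36 (interval -0.91 to 0.19, limma adjusted p = 0.949), was the lowest of the 50 genes. H2BC4 stood at 7.30, 7.53, 7.23 and 7.64 and was above the array limit on both treated arrays and neither untreated one. H2BC5 stood at 10.64, 10.57, 10.52 and 10.74. The groups overlapped in H2BC3, H2BC4 and H2BC5. H2BC6 stood at 7.55, 7.55, 7.53 and 7.71. H2BC7 stood at 11.78, 11.78, 11.77 and 11.80, the smallest range over the 4 arrays among the 15 H2B genes.

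A further set of H2B genes had a low value on untreated replicate 2. H2BC9 stood at 13.94, 13.40, 13.51 and 13.72. H2BC10 stood at 9.61, 9.03, 9.14 and 9.65. H2BC11 stood at 12.37, 11.87, 11.999 and 12.37. In these 3 genes untreated replicate 2 and treated replicate 1 were the 2 lowest arrays, so each group held a high and a low value. H2BC13 stood at 8.66, 8.11, 8.40 and 9.03, with the same 2 lowest arrays and the widest treated gap of the 50 genes, 0.62. H2BC21, whose message can be polyadenylated, stood at 10.71, 10.28, 10.68 and 10.74, with untreated replicate 2 apart from the other 3 arrays.

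The other 3 H2B genes also had overlapping groups. H2BC12 stood at 16.75, 16.73, 16.76 and 16.66. H2BC14 stood at 15.63, 15.53, 15.36 and 15.55. H2BC18, on chromosome 1, stood at 16.07, 15.88, 15.95 and 16.11. Of these, H2BC12, whose message can be polyadenylated, was lower on treated replicate 2 than on treated replicate 1 by a difference of -0.10. Between the untreated arrays 14 of the 15 H2B genes were lower on replicate 2, with a median of -0.17, whereas 9 of the 11 H4 genes were higher on it, with a median of 0.041. Over the 9960 probe sets 42.4% were higher on untreated replicate 2, with a median of -0.0535. After another quantile normalization 10 of the 15 H2B genes were lower and after cyclic loess 11, and the H4 count stayed at 9. The difference between the classes was not tested. The median treated minus untreated difference of the H2B genes was 0.056, and it was -0.021 without treated replicate 2 and -0.0064 without untreated replicate 2.

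H3 carries the tail residues on which many activating and silencing marks are placed, and 8 of 9 measured H3 genes were above the negative controls. H3C1 stood at 10.25, 10.15, 10.03 and 10.21. H3C2 stood at 11.09, 10.78, 10.86 and 11.26. H3C3 stood at 8.07, 7.86, 7.86 and 8.07. These genes of the chromosome 6 cluster had overlapping groups and higher values on treated replicate 2 than on treated replicate 1. H3C7 stood at 11.42, 11.55, 11.37 and 11.31, with both treated values below both untreated ones. The difference of H3C7 was -0.15 ± 0.18 (SE), with an interval of -0.59 to 0.29 and a limma adjusted p of 0.985.

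H3C8 stood at 10.56, 11.02, 10.64 and 11.11, with a low and a high value in each group. H3C10 stood at 8.38, 8.71, 8.06 and 8.54, and its lowest value was treated replicate 1. The difference of H3C10 was -0.24 (interval -0.81 to 0.32, limma adjusted p = 0.977), the smallest p of the 8 H3 genes above the negative controls, and it was near 0, at 0.00096, without treated replicate 1. H3C11 stood at 13.98, 13.92, 13.91 and 14.04. H3C13, on chromosome 1, stood at 11.45, 11.31, 11.10 and 11.55. Treated replicate 1 lay below the untreated mean in 8 of 8 H3 genes and treated replicate 2 above it in 7. Of the 9960 probe sets 4014 and 5500 did so, in the same order. The median difference of the class was -0.026.

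H4, the partner of H3, is encoded by genes that specify the same protein in nearly all cases. H4C3 stood at 16.42, 16.68, 16.37 and 16.63. H4C5, whose promoter is shown above, stood at 15.81, 15.85, 15.79 and 15.82. H4C11 stood at 15.31, 15.45, 15.21 and 15.62. In these 3 genes the groups overlapped, and H4C5 had the smallest range over the 4 arrays among the 11 H4 genes. H4C1 stood at 8.97, 9.38, 9.24 and 9.41, with untreated replicate 1 as its lowest array. H4C4 stood at 10.66, 10.70, 10.37 and 10.70. H4C8 stood at 12.76, 12.77, 12.66 and 12.90. H4C4 and H4C8 had their lowest value on treated replicate 1, as did 28 of the 50 histone genes (9 of 11 H4, 8 of 13 H2A, 5 of 8 H3, 6 of 15 H2B and 0 of 3 H1) and 1460 of the 9960 probe sets.

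H4C9 stood at 10.48, 10.35, 10.09 and 10.54. H4C12 stood at 11.40, 11.44, 11.29 and 11.50. H4C13 stood at 7.26, 6.86, 7.02 and 7.11, above the limit of the 4-array mean but on no single array, so no fold is given. H4C14 and H4C15, on chromosome 1, are near-identical copies whose 250 bases before the start were the same in all 250 positions. Those of H4C11 and H4C12 matched at 245 of 250. H4C14 stood at 13.94, 14.03, 13.72 and 13.96. H4C15 stood at 13.79, 13.90, 13.51 and 13.85, and both copies had their lowest value on treated replicate 1. The difference of H4C15 was -0.17 (interval -0.65 to 0.32, limma adjusted p = 0.985), the smallest p among the 11 H4 genes above the negative controls, and it was 0.0057 without treated replicate 1. The median difference of the 11 genes was -0.028, and 11 of 11 were higher on treated replicate 2 than on treated replicate 1.

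The class medians depended on which treated array was used. With treated replicate 1 alone against the untreated mean they were 0.025 for H1, -0.19 for H2A, -0.021 for H2B, -0.14 for H3 and -0.17 for H4. With treated replicate 2 alone they were 0.37, 0.12, 0.17, 0.10 and 0.073 in the same order. Over the 9960 probe sets the medians were 0.047 on treated replicate 1 and 0.030 on treated replicate 2. H2A, H2B, H3 and H4 therefore took opposite signs on the 2 treated arrays, and H1 was positive on both, but turned negative on treated replicate 1 after another quantile normalization (-0.035) or cyclic loess (-0.036). The 6 genes whose messages can be polyadenylated are H1-2, H2AC6, H2BC4, H2BC5, H2BC12 and H2BC21. Their median treated minus untreated difference was 0.12, with 5 of 6 positive beside 58.6% of the 9960 probe sets, and none passed the test. Of these 6, 5 were higher on treated replicate 2 than on treated replicate 1, with a median of 0.18.

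**Figure D4:**
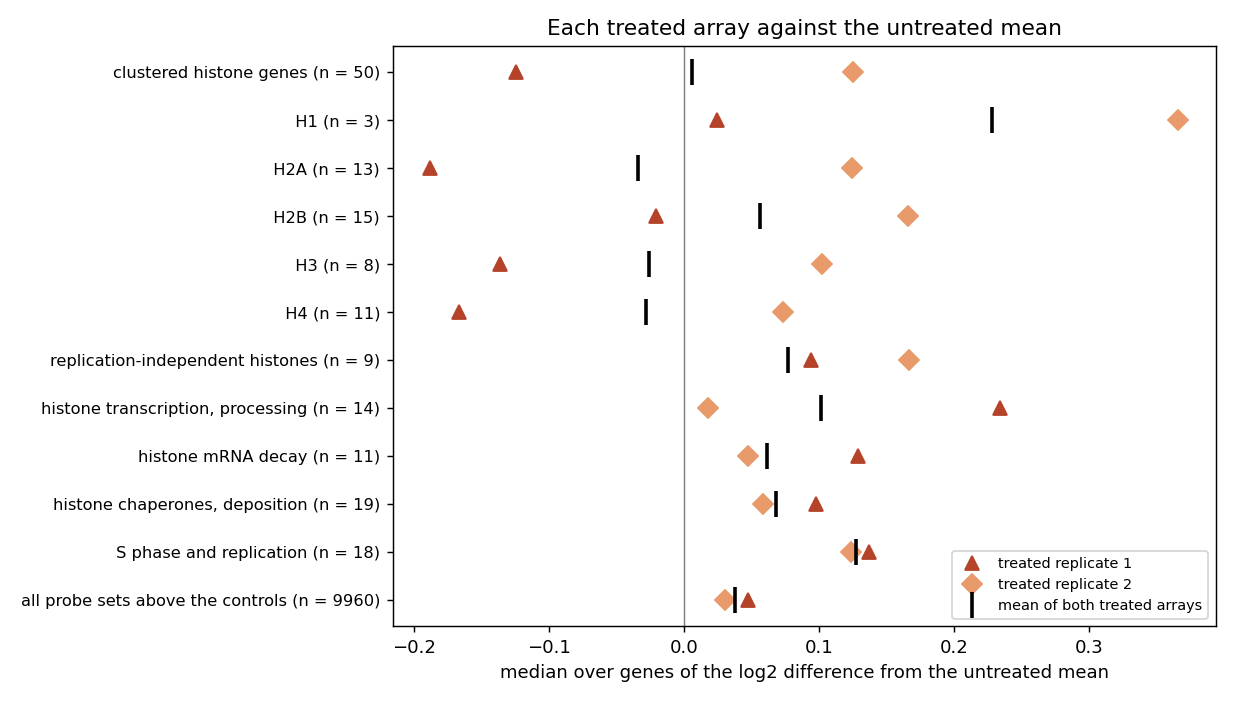
Median over genes of the log2 difference from the untreated mean (x axis) for treated replicate 1, treated replicate 2 and the mean of both, in the clustered histone genes, their 5 classes, 5 companion lists and all 9960 probe sets above the negative controls (y axis, with the number of genes). The 2 treated arrays lie at -0.12 and 0.13 for the clustered histone genes and at 0.14 and 0.12 for the S phase genes.

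Replication-independent histones, most of which can be made outside S phase from polyadenylated messages, were measured for 10 of 13 listed genes, 9 of them above the negative controls. H2BU1, listed here under its former symbol, is H2BC26, which was counted with the clustered genes and not among the 10. None of those 9 passed in either direction. Of the 9 differences 7 were positive, beside 58.6% of the 9960 probe sets, and their median was 0.077. CENPA, the centromeric H3 variant, stood at 8.94, 9.003, 9.39 and 9.18, a difference of 0.32 with an interval of -0.13 to 0.77. H2AZ1, a variant H2A found at promoters, stood at 15.30, 14.73, 15.24 and 15.25, with untreated replicate 2 apart from the other 3 arrays and a difference of 0.23 (interval -0.33 to 0.79). H3-3B, which encodes the replacement histone H3.3, stood at 15.31, 14.78, 15.30 and 15.24 with a difference of 0.22 (interval -0.32 to 0.76). The signs of H2AZ1 and H3-3B turned without untreated replicate 2, at -0.050 and -0.044. Of the 9 genes, 6 were higher on treated replicate 2 than on treated replicate 1, by a median of 0.12.

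Of the genes that serve the transcription and 3' end processing of histone messages, 14 were above the negative controls, and 3 of the 14 were higher on treated replicate 2, with a median of -0.17. Over all 9960 probe sets the share was 45.5%, and the difference from the histone genes was not tested. SLBP, the stem-loop binding protein, stood at 10.41, 10.30, 10.51 and 10.22 and CASP8AP2, a factor of histone locus bodies, at 10.60, 10.47, 10.77 and 10.39. SLBP was thus lower on treated replicate 2 than on treated replicate 1, by a difference of -0.29. NPAT, the cyclin E-CDK2 substrate that activates histone transcription, stood at 7.67, 6.58, 7.41 and 7.20 and was above the array limit on 2 of the 4 arrays. In this list 11 of 14 treated minus untreated differences were positive, beside 58.6% of the 9960 probe sets, with a median of 0.10, and 0 passed. Among these 14 the smallest p belonged to COIL, coilin of Cajal bodies, at 0.32 (interval -0.17 to 0.81), NCBP1, a cap-binding subunit, at -0.26 (interval -0.69 to 0.17), and LSM10, a subunit of the U7 particle that takes part in processing, at 0.28 (interval -0.20 to 0.75).

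In the list on decay of histone messages, which degrades them when replication stops, 8 of 11 differences were positive with a median of 0.061 and none passed. Of the 9960 probe sets 58.6% were positive. UPF1, the helicase recruited to histone messages for decay, stood at 7.14, 7.49, 7.91 and 8.25, with both treated values above both untreated ones. TUT4, a terminal uridylyltransferase, stood at 7.12, 6.34, 7.72 and 7.26. Both had a limma adjusted p of 0.948. UPF1 and TUT4 were each above the array limit on both treated arrays and neither untreated one. Bounded as for H2BC26, the treated mean was 1.52-fold above the bound for UPF1 and 1.007-fold for TUT4. The unadjusted limma interval, resting on those untreated values, was 0.24 to 1.30 log2 for UPF1 and 0.041 to 1.48 for TUT4. With an untreated mean of 6.73, TUT4 was above the negative controls only through its treated values. On treated replicate 2 TUT4 lay below the array limits of both untreated arrays. These bounds make no allowance for the spread between arrays. MIF4GD, an SLBP-interacting translation factor, had 0.17 (interval -0.26 to 0.60).

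Histone chaperones and deposition factors, which carry new histones to DNA, had 12 of 19 positive differences with a median of 0.068, and none passed. Among these 19 the smallest p belonged to CABIN1, IPO4 and DAXX. CABIN1, a subunit of the HIRA complex, had a difference of 0.42 (interval -0.013 to 0.86). DAXX, a chaperone of H3.3, had 0.30 (interval -0.14 to 0.74). IPO4, a histone importer, was below the array limit on both untreated arrays. Bounded as for H2BC26, its treated mean was 1.04-fold above the bound, without allowance for the spread between arrays. On treated replicate 1 IPO4 lay below the array limit of untreated replicate 2, and its limma interval was -0.073 to 0.94 log2. In the S phase and replication list 16 of 18 differences were positive with a median of 0.13, and none passed. Over the 9960 probe sets 58.6% were positive, with a median of 0.038, to be set beside both lists. MCM6 and MCM5, subunits of the replicative helicase, had 0.36 (interval -0.09 to 0.80) and 0.33 (interval -0.17 to 0.83), and CCNE1, cyclin E1, had 0.27 (interval -0.17 to 0.72). Between the treated arrays 7 of these 18 genes were higher on replicate 2, with a median of -0.073, and 6 of the 19 chaperone genes were, with a median of -0.079. The difference between these lists and the histone genes was not tested.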

How the data were processed

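Expression was deposited by the authors as log2 values, 1 per probe set. Transcriptome Analysis Console 4.0.1.36 and RMA are named in the submitters' processing notes, and the log2 scale was read from the values, which run from 1.98 to 18.10. RMA corrects background, quantile-normalizes and summarizes probes, so a shift shared by most genes is removed. The aligner of probes to genes and the genome build are not given in the sources used here.

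Of 24351 probe sets, 2903 controls were left out and 21448 were tested without a filter in limma 3.58.1 (lmFit, eBayes; R 4.3.3). The model held the group alone, tests were two-sided, and p-values were adjusted over all 21448 by Benjamini-Hochberg. Residual degrees of freedom were 2 and prior ones 4.90. With 2 arrays against 2, an exact permutation test cannot give a two-sided p below 0.333. All 17709 gene identifiers matched RefSeq of GRCh38.p14, with 0 symbols changed, and each histone gene had 1 probe set. For a gene with several, the brightest was used.

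Nothing in the labels says how the cultures of a group were separated, and p-values then reflect only how far these arrays spread, which may be technical. The number of arrays limits the precision. The fit was tested on simulated data.

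Named genes are all histone genes above the negative controls, with values per array, and the genes of smallest p, at most 3, from each companion list (polyadenylated and testis clustered histones, replication-independent histones, transcription and processing, decay, chaperones, S phase). Differences are printed for the members whose groups did not overlap and the smallest p of each class among genes above the negative controls, a choice made after the values were seen, as was the limit of the negative controls. SLBP, CASP8AP2 and NPAT are named outside this rule, after their values were seen. The difference of H2BC3 is also printed outside it, as the lowest of the 50 genes. The members and lists were chosen with earlier results of these data known. Alternatives were 3 normalizations, 2 filters on dim probe sets, a block for the replicate number, another variance moderation, probe sets with 1 symbol, averaging a gene's probe sets, and each array left out.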

Additional observations from a re-analysis of the deposited data

How the results depend on the processing

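No probe set and no histone gene passed in limma under any of the 13 alternatives, with 509 to 2444 probe sets at an unadjusted p under 0.05, and the smallest adjusted p of a histone gene in any of them was 0.346. A count of 0 with so few arrays says nothing about stability, and with an array left out the lone array of its group is assumed to vary like the other group. The median treated minus untreated difference of the 61 histone genes was -0.027 after another quantile normalization and -0.017 after cyclic loess, where that of the 50 genes above the negative controls was -0.032 and -0.024. Leaving out an array gave -0.12 to 0.12 for the 61 and -0.12 to 0.13 for the 50, with the lowest value without treated replicate 2 and the highest without treated replicate 1, and both medians were negative without either untreated replicate too. The class medians then ran from 0.025 to 0.37 for H1, -0.19 to 0.12 for H2A, -0.021 to 0.17 for H2B, -0.14 to 0.10 for H3 and -0.17 to 0.073 for H4. Leaving out an array turned the sign of H3C10 (-0.49 to 0.00096), H4C15 (-0.34 to 0.0057), H2AZ1 (-0.050 to 0.51) and H3-3B (-0.044 to 0.48). H2A, H3 and H4 turned without treated replicate 1, H2B without treated replicate 2, and H2A (0.034) and H2B (-0.0064) without untreated replicate 2. No normalization turned the treated minus untreated median of a class. Nor did one turn the difference of a gene given one in the report, where H2BC3 was not checked. Filters, moderation and the replicate block cannot change a difference in this balanced design, so they could turn none. The cause of the turns was not tested. With the replicate number as a block, 0 probe sets and 0 histone genes passed. Same-numbered arrays did not deviate together (correlation of deviations -0.00085 over all probe sets), so the number is not taken as a pairing. The filters on dim probe sets could change only p-values and adjusted p-values, not the difference of a gene. The count of histone genes higher on untreated replicate 2 was 20 of 50, and 24 after another quantile normalization. Of the 9960 probe sets 42.4% and 50.1% were, in the same order. The alternatives for differences between arrays of one group were chosen after seeing the data. Signal near the background limits H2BC26, H2AC25, H2BC4, H2BC6, H4C13, NPAT, UPF1, TUT4 and IPO4, which were not above the array limit on every array.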

Other observations

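Of 12 pairs of clustered histone genes whose starts lie within 1000 bases and point away from each other, 11 join an H2A and an H2B gene and 1 joins H3C7 and H2BC9. In 8 of the 12 both genes were above the negative controls, and in 5 of these 8 the treated minus untreated differences had the same sign. Between the treated arrays the difference was 0.62 for H2BC13 and 0.15 for H2AC13, a pair chosen after its values were seen.

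The higher values on treated replicate 2 were present on both chromosomes, in 37 of 39 genes on chromosome 6 (median 0.26) and 11 of 11 on chromosome 1 (median 0.24). They were also present at each level of signal. The 12 histone genes with a mean of 9 or less had a median difference between the treated arrays of 0.41, where the 3405 probe sets above the negative controls in that range had -0.032. The 27 with a mean of 9 to 15 had 0.24, where 6292 probe sets had -0.026. The 11 with a mean above 15 had 0.19, where 263 probe sets, the 11 among them, had 0.073. In that range most probe sets were higher on treated replicate 2 too, 67.3% of the 263 and 10 of the 11. Leaving out H2AC18, H2AC19, H3C13, H4C14 and H4C15, genes with near-identical copies, 43 of 45 were higher on treated replicate 2. The 45 may still share signal within a class, so this count does not test for shared signal.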
